A study of Mus musculus with 8 samples.

Results

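The 10 mRNA decay regulators described here are the members of 4 families of RNA-binding or deadenylase-recruiting proteins that restrain T cell activation. They are the Zfp36 family (Zfp36, Zfp36l1, Zfp36l2), the Regnase family (Zc3h12a, Zc3h12d), the Roquin family (Rc3h1, Rc3h2) and the BTG/TOB family (Btg1, Btg2, Tob1). They were chosen by gene symbol, with earlier results of these data known. The shares of members called below are therefore a description, not a test against all genes. All 10 were found among the 24453 genes of the deposited expression table. All 10 were also among the 15547 genes that passed the filter on low values, which asked for a normalised read count of 1 or more in 2 or more libraries.

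Messenger RNA was sequenced from mouse CD4+ Foxp3+ T cells sorted by flow cytometry, the regulatory T (Treg) cell fraction. There were 3 libraries of line T143, 2 of line T138 and 3 of wild-type (WT) cells. T143 and T138 are lines of mice cloned by nuclear transfer: a T cell nucleus, with its rearranged receptor genes, gives rise to the animal. Per the series text, T138 models naturally occurring Treg cells and T143 models agonist-induced ones, and the question was whether they are distinct subsets. All 8 libraries, WT included, carry the strain label NOD-Foxp3GFP-Rag1-/-, a NOD background with a Foxp3-GFP reporter and a Rag1 knockout. Whether WT mice truly lack Rag1 was not tested. The WT libraries held mRNA of the T cell gene Cd3e at 7031 to 12487. Should WT mice carry an intact Rag1, the comparisons with WT would also set knockout against intact animals, and line and Rag1 status could not be separated there. Each line goes back to a single nucleus, so that line and receptor cannot be told apart. The labels do not state age. In 2 libraries, T143 replicate 1 and WT replicate 1, the source name disagrees with the title (it points to T138 and to T143), and the titles were followed. Nothing in the labels says whether replicates are separate animals, so the p-values cover only the library-to-library spread, which may be technical.

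As background, T cell activation depends on how long cytokine and signalling mRNAs last as well as on their synthesis. Zfp36 proteins bind AU-rich elements in the 3′ untranslated region (3′UTR) of mRNAs and bring in the CCR4-NOT deadenylase, which shortens the poly(A) tail. Regnase proteins cut stem-loops in the 3′UTR, Roquin proteins bind stem-loops and recruit CCR4-NOT, and BTG/TOB proteins link deadenylases to their substrates. In mice, loss of Roquin-1 or Regnase-1 is known to cause T cell-driven inflammation, and Btg1 and Btg2 are known to keep naive T cells quiescent.

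Several of these mRNAs carry the kind of element that Zfp36 proteins recognise. The heptamer UAUUUAU, the core of the Zfp36 binding site, was searched in the 3′UTR of the GENCODE transcripts (GRCm38, transcript strand). It was present in 6 of the 10 members, against 27.2% of 13879 tested genes with a 3′UTR of at least 50 bases. The members' 3′UTRs were longer, with a median of 1965 bases against 967 bases. Among genes with a 3′UTR within 10% of a member's length, 19.0% (Zfp36 and Tob1) to 73.3% (Rc3h1) held a heptamer. For Btg1, which held none, that share was 60.9%. Zfp36, Zfp36l1, Zfp36l2 and Rc3h2 each held 3 heptamers, Rc3h1 held 2 and Btg2 held 1, whereas Zc3h12a, Zc3h12d, Btg1 and Tob1 held none. Zfp36 packs its 3 into a 3′UTR of 774 bases, and 1.08% of the 832 genes whose 3′UTR lies within 10% of that length hold as many. The same share of genes of like length was 3.84 to 3.97% for the 3 heptamers of Zfp36l1, Zfp36l2 and Rc3h2, 44.6% for the 2 of Rc3h1 and 41.4% for the 1 of Btg2. The 3 Zfp36 heptamers start at bases 575, 590 and 615 of the 3′UTR. They are shown, 5′ to 3′, to let the cluster be read beside the 1 site each of Zfp36l1 and Zfp36l2 that lies within the longer nonamer UUAUUUAUU, with the heptamer in capitals.
Zfp36, chr7:28376965-28376994, minus strand: agugggcccuuUAUUUAUgacgacuuuauu
Zfp36, chr7:28376950-28376979, minus strand: uaugacgacuuUAUUUAUuguauuaagauu
Zfp36, chr7:28376925-28376954, minus strand: agauuuuauagUAUUUAUauauauuggguc
Zfp36l1, chr12:80108166-80108195, minus strand: aacuguuggauUAUUUAUuuuagaaauucu
Zfp36l2, chr17:84184913-84184942, minus strand: acuauuuaacuUAUUUAUuaucuugugaaa
The full nonamer UUAUUUAUU was present in 5 of the 10 members and in 7.02% of the tested genes, a share not matched for length. A match is a description of the letters, not evidence of binding.

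The promoters of these genes were also read, as the 250 bases before the start site of the RefSeq annotation (GRCm38.p6), which matched 9 of the 10 members and not Zfp36l2. Both strands were searched for the cAMP response element TGACGTCA, the AP-1 site TGANTCA, the CArG box of serum response factor and the NF-kB site. One match each was found in Zfp36 (a CArG box), Zfp36l1 and Rc3h1 (AP-1 sites) and Btg2 (a cAMP response element). Over all 32851 RefSeq promoters of the same length, a CArG box was present in 1.47%, the cAMP response element in 1.55%, an AP-1 site in 6.75% and an NF-kB site in 7.25%. The promoters of Zfp36, Btg2 and Zfp36l1 are shown because each holds a match, Zfp36 and Btg2 are later set beside the immediate early genes, and Zfp36l1 was lower in T143 than in both other groups. That of Rc3h1, which passed in no comparison, is not shown. They run 5′ to 3′ on the gene's strand, with the motif in capitals.
Zfp36, chr7:28379229-28379478, minus strand: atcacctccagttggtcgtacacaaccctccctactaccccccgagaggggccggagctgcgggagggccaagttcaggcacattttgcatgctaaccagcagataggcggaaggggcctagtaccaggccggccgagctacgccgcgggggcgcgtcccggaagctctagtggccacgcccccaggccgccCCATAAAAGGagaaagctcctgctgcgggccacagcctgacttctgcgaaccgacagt
Btg2, chr1:134079156-134079405, minus strand: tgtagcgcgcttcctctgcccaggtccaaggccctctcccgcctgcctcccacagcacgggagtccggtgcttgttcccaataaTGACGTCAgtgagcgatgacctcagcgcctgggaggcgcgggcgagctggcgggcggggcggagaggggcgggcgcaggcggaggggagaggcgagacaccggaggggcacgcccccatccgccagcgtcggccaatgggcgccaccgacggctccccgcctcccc
Zfp36l1, chr12:80113014-80113263, minus strand: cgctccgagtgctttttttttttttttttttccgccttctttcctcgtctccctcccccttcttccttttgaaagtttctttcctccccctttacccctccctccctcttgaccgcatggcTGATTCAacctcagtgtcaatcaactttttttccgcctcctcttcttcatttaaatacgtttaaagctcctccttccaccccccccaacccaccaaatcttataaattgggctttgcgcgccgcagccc
Counted from the start site, the CArG box of Zfp36 begins at -58, the cAMP response element of Btg2 at -166 and the AP-1 site of Zfp36l1 at -129. No match in the other windows says only that these letters are not there.

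Deposited values are normalised read counts, gene reads scaled to the same total in every library. Recovered depth was 7.83 to 12.6 M reads in T143, 15.84 to 18.41 M in T138 and 14.64 to 22.64 M in WT. Cd4 was detected in all groups, at 10922 to 15941 in T143, 12235 to 12820 in T138 and 14770 to 17655 in WT. Foxp3, the transcription factor that defines the gate, was listed at 3920.48 to 8694 in T143, 41161 to 41854 in T138 and 29773 to 36362 in WT. The summed value of 9 T cell genes, Cd4 and Foxp3 among them, was 105117, 80078 and 67270 in the T143 libraries. It was 115091 and 115189 in the T138 libraries and 113635 to 134049 in WT. Genes of other cells moved with the groups: the summed value of 16 neutrophil genes was 96673, 165497 and 595341 in the T143 libraries, 25702 and 4788 in the T138 libraries, and 81.3, 946 and 372 in WT, where 9, 4 and 6 of the 16 were at 0. The 10 dendritic cell and MHC class II genes summed to 6953 to 28584 in T143, 77914 to 103165 in T138 and 1283 to 1719.8 in WT, and 8 monocyte genes to 10695 to 39454, 12905 to 16101 and 906 to 1126. For 9 erythroid genes the sum was 2770 to 15461 in T143, 1185 and 2421 in T138 and 245.5 to 686 in WT. The part of these cells in the results below was not tested. Values without the libraries highest in neutrophil genes do not test it. The T143 libraries left then stand at 96673 and 165497, and the T138 library left at 4788. In such bulk libraries fewer cells of a type and less RNA per cell cannot be told apart. T143 libraries had Xist at 19143 to 24992, against at most 2.95 in T138 and 129.93 in WT, so that sex and line cannot be told apart in the comparisons with T143. In the 2 libraries with a disagreeing source name, Xist lay with the group of the title, at 19143 in T143 replicate 1 and 35.13 in WT replicate 1.

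T143 libraries had less mRNA of 4 of the 10 decay regulators than T138 libraries, and none was called higher. Zfp36, Zfp36l1, Zfp36l2 and Zc3h12a were the 4 lower genes, at log2 changes between -1.80 and -0.89, and the other 6 did not pass. Over all 15547 tested genes, 10.2% were called lower and 10.8% higher in T143 (21.0% in either direction; limma on log2(value + 1), Benjamini-Hochberg adjusted p under 0.05). The median log2 change of the members was -0.36, beside 0.15 over all tested genes. With limma 2 members, Rc3h1 and Tob1, were higher at an unadjusted p under 0.05, and edgeR and DESeq2 on the recovered reads called 0 higher and 4 lower. All 4 calls held without T143 replicate 3 and T138 replicate 1, the libraries of each line highest in neutrophil genes. Libraries of the 2 lines did not overlap for 7 of the 10 members, beside 51.7% of tested genes.

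Against WT libraries, T143 libraries were lower in 4 of the 10 members and higher in none, beside 12.1% of tested genes called lower and 11.7% higher. The 4 were Zfp36l1, Zfp36l2, Zc3h12a and Zc3h12d, with log2 changes from -1.58 to -0.52. The median log2 change over all 10 members was -0.19, beside 0.05 over all tested genes. At an unadjusted p under 0.05, 1 member (Rc3h1) was higher with limma, and edgeR and DESeq2 called 0 higher and 4 lower. Libraries did not overlap for 4 of the 10 members, beside 40.7% of tested genes. T138 libraries differed from WT libraries in 2 members: Zfp36 was higher and Zc3h12d lower. Over all tested genes 5.74% were called higher and 5.3% lower in T138 (11.0% in all), the median log2 change was 0.06 over the members and -0.07 over all tested genes, and libraries did not overlap for 5 of the 10 members, beside 37.5% of tested genes. The comparisons share libraries, so that each is given by its own values. Rc3h1, Rc3h2, Btg1, Btg2 and Tob1 passed in none of the 3 comparisons.

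**Figure D1:**
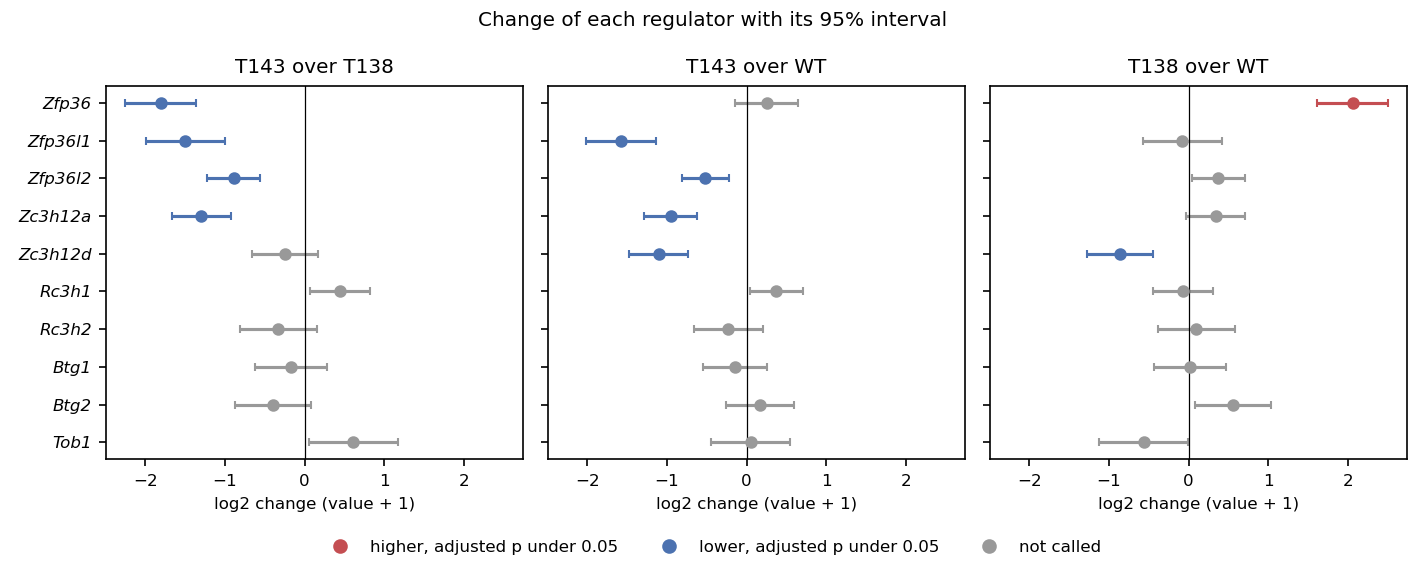
The 10 members run down the page by family, and each panel shows a comparison as log2 change with its 95% interval, coloured red where a member was called higher, blue where it was called lower and grey where it did not pass (adjusted p under 0.05). Zfp36, Zfp36l1, Zfp36l2 and Zc3h12a lie left of 0 in the T143 over T138 panel, Zfp36 alone lies far right in the T138 over WT panel, and Zfp36l1, Zfp36l2, Zc3h12a and Zc3h12d lie left in the T143 over WT panel.

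Zfp36 encodes tristetraprolin, the founding protein of its family, which degrades Tnf and other cytokine mRNAs and is itself an immediate early gene. Its values were 6756, 7125 and 8022 in the T143 libraries, 28891 and 22408 in the T138 libraries, and 7970.3, 5077 and 5648 in WT. Both T138 libraries stood above all others, and T143 and WT overlapped. The T143 mean was 28.5% of the T138 mean, a log2 change of -1.80 ± 0.20 (SE; limma adjusted p = 0.000363). T138 was 4.12-fold above WT (log2 change 2.06 ± 0.20, limma adjusted p = 0.000289). T143 against WT did not pass, with a log2 change of 0.25 (95% interval -0.15 to 0.65; limma adjusted p = 0.347). Within WT, replicate 1 was highest.
Zfp36l1 acts with Zfp36l2 in lymphocyte development and quiescence and showed another order of groups. It was at 3079, 3264 and 2789.65 in the T143 libraries, 8354 and 8817 in the T138 libraries, and 6281, 11103 and 10662 in WT. All T143 libraries lay below every other library, and the spread within WT was wide, with replicate 1 lowest. T143 was lower than T138 by a log2 change of -1.50 ± 0.22 (limma adjusted p = 0.00158) and lower than WT by -1.58 ± 0.20 (limma adjusted p = 0.000536). The T143 mean was 35.5% of that of T138 and 32.6% of that of WT. T138 and WT overlapped, at -0.08 (95% interval -0.57 to 0.42; limma adjusted p = 0.878).
Zfp36l2 had values of 6725, 7950.01 and 6206 in the T143 libraries, 11720.3 and 14058 in the T138 libraries, and 9867, 9749 and 10144 in WT. The 3 groups did not overlap in any pair, with T143 lowest and T138 highest. The log2 change was -0.89 ± 0.15 for T143 against T138 (limma adjusted p = 0.00279) and -0.52 ± 0.14 for T143 against WT (limma adjusted p = 0.0186). T138 against WT did not pass at 0.37 ± 0.15 (limma adjusted p = 0.155), whereas DESeq2 on the recovered reads called it higher (0.43, adjusted p = 0.0233). Without WT replicate 3, the T143 against WT change of Zfp36l2 lost its call, at -0.50 (limma adjusted p = 0.0602).

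**Figure D2:**
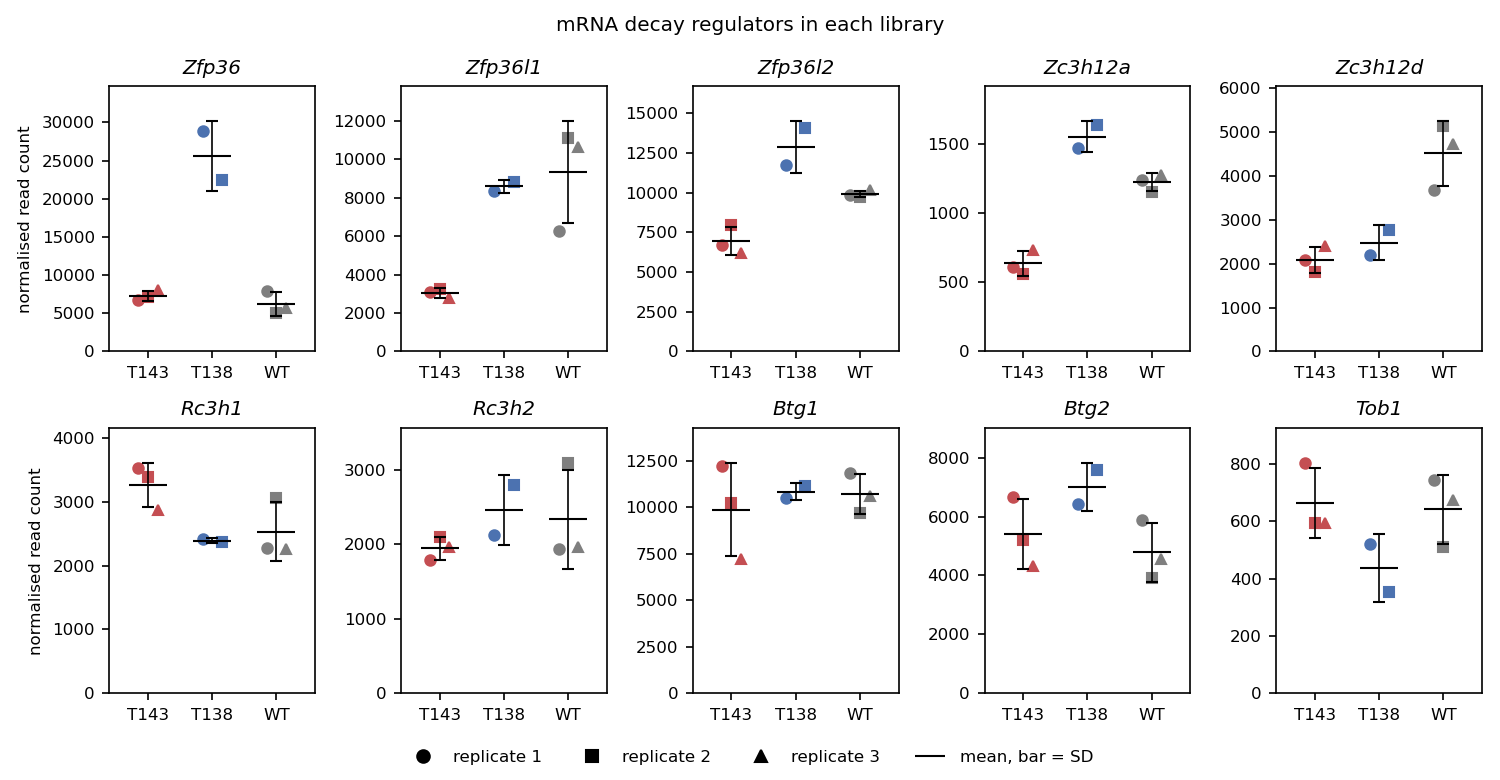
Each panel plots the normalised read count of a member by library, with T143, T138 and WT from left to right, a symbol per replicate, a line at the group mean and a bar for the SD. Zfp36 is high in the 2 T138 libraries (22408 and 28891), and Zfp36l1, Zfp36l2 and Zc3h12a are lowest in T143.

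Because levels can be compared between genes only per length, the family was also expressed as normalised reads per kilobase of transcript. On this scale Zfp36 held 54.7 to 62.8% of the summed family level in T143, 64.7 to 72.8% in T138 and 30.7 to 48.0% in WT. With the Zfp36 length taken as the whole GENCODE transcript of 2790 bases, an alternative chosen after seeing the data, the shares were 43.3 to 51.7% in the T143 libraries, 53.7 and 62.9% in the T138 libraries, and 21.9 to 36.8% in WT. The summed level was 6765 to 7383 per kilobase in T143, 19633 to 22489 in T138 and 9359 to 9646.5 in WT. The 3 WT libraries were close in the sum and differed in the make-up: Zfp36l1 took 39.8 and 37.0% in replicates 2 and 3 and 22.4% in replicate 1, where Zfp36 took 48.0%. In T143 Zfp36l1 took 12.9 to 15.3%, and in T138 12.4 to 15%.

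**Figure D3:**
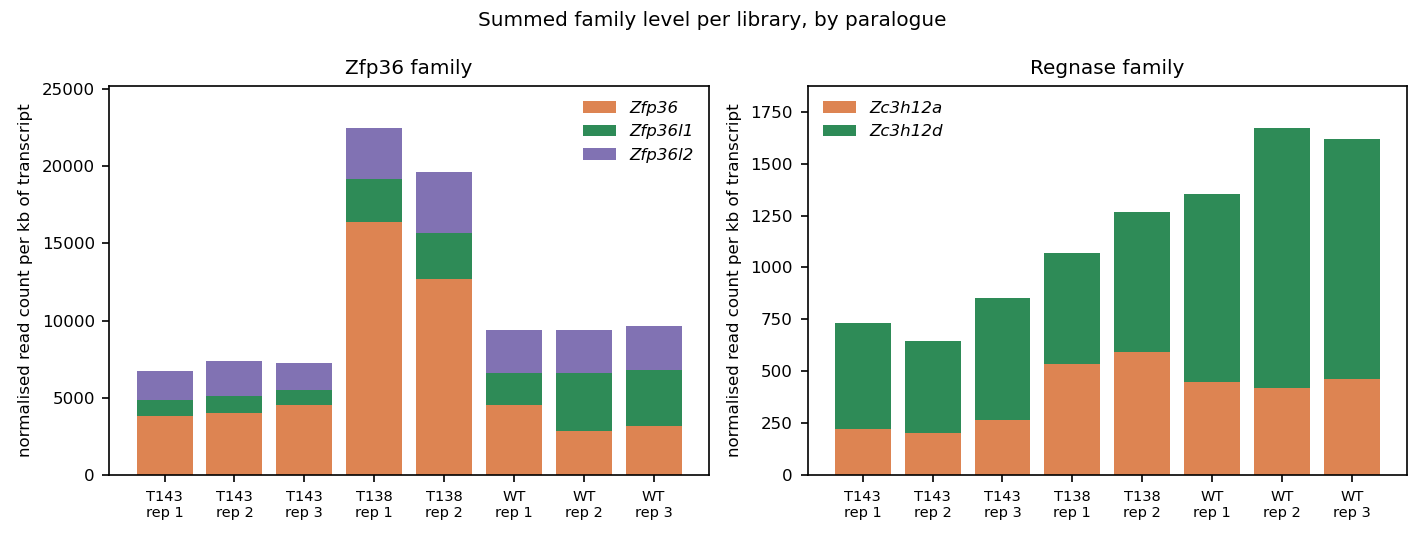
Stacked bars give normalised reads per kilobase of transcript for the members of the Zfp36 and Regnase families by library, with T143, T138 and WT from left to right. The T138 bars of the Zfp36 family (19633 and 22489 per kilobase) are the highest, and Zfp36 makes up the larger part of them.

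Zc3h12a encodes Regnase-1, an endoribonuclease that degrades Il6, Il2 and Rel mRNAs and is itself cleaved by the protease MALT1 after receptor stimulation. It was at 611, 562 and 734 in the T143 libraries, 1471 and 1634 in the T138 libraries, and 1240.45, 1150.19 and 1278 in WT. T143 libraries were below all others and T138 libraries above all others. T143 was lower than T138 by -1.29 ± 0.17 (log2; limma adjusted p = 0.000776) and lower than WT by -0.95 ± 0.15 (limma adjusted p = 0.00164). T138 against WT gave 0.34 (95% interval -0.03 to 0.71; limma adjusted p = 0.242).
Zc3h12d encodes Regnase-4, a relative of Regnase-1 first described as a lymphoma-associated gene. It was at 2086, 1803 and 2395 in the T143 libraries, 2198 and 2767 in the T138 libraries, and 3691, 5139 and 4722 in WT. Every WT library was above every library of both lines, and the lines overlapped. The log2 change was -1.10 ± 0.17 for T143 against WT (limma adjusted p = 0.00141), -0.86 ± 0.19 for T138 against WT (limma adjusted p = 0.0164) and -0.24 (95% interval -0.66 to 0.17) for T143 against T138 (limma adjusted p = 0.386). The T138 against WT call was lost without T138 replicate 1 (-0.69, limma adjusted p = 0.133) and without WT replicate 3 (-0.82, limma adjusted p = 0.06).
Per kilobase, Zc3h12a made up 30.3 to 31.7% of the summed level of both genes in T143, 46.7 to 49.9% in T138 and 25.0 to 33.3% in WT. The summed level per kilobase was 645 to 852 in T143, 1071 to 1269 in T138 and 1352 to 1673 in WT.

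The Roquin genes did not pass in any comparison. Rc3h1 encodes Roquin-1, which limits Icos and other mRNAs of helper T cells, and Rc3h2 encodes Roquin-2, its partly redundant relative. Rc3h1 was at 3532, 3386 and 2871 in the T143 libraries, 2422 and 2361 in the T138 libraries, and 2275, 3059.7 and 2264 in WT. All T143 libraries were above both T138 libraries, at a log2 change of 0.44 (95% interval 0.07 to 0.82; limma adjusted p = 0.0887), and 1 WT library lay within the T143 range. Rc3h2 was at 1785, 2095 and 1962 in the T143 libraries, 2127 and 2794 in the T138 libraries, and 1937, 3097 and 1969 in WT, with log2 changes of -0.33, -0.23 and 0.10 for T143 against T138, T143 against WT and T138 against WT (limma adjusted p = 0.311, 0.433 and 0.833). Without WT replicate 2, Rc3h1 was called higher in T143 than in T138 (0.44, limma adjusted p = 0.0414) and than in WT (0.52, limma adjusted p = 0.0282). Per kilobase Rc3h1 was 43.7 to 51.2% of the pair in T143, 30.9 to 37.6% in T138 and 34.4 to 38.3% in WT.

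The BTG/TOB genes did not pass either. Btg1, an antiproliferative deadenylase adaptor, was at 12221, 10208 and 7214 in the T143 libraries, 10519 and 11151 in the T138 libraries, and 11854, 9714 and 10589.8 in WT. Its groups overlapped in every pair. Btg2, which is induced by p53 and by receptor signals, was at 6671, 5199.9 and 4313 in the T143 libraries, 6414 and 7585.5 in the T138 libraries, and 5881, 3923 and 4572 in WT. Both T138 libraries were above all WT libraries, at a log2 change of 0.56 (95% interval 0.09 to 1.04; limma adjusted p = 0.133), and without the 2 libraries with a disagreeing source name this passed (0.72, limma adjusted p = 0.0463). Tob1, a negative regulator of T cell proliferation, was at 804, 593 and 593 in the T143 libraries, 522 and 352 in the T138 libraries, and 742, 509 and 673 in WT, with log2 changes of 0.61 for T143 against T138 (limma adjusted p = 0.109) and -0.56 for T138 against WT (limma adjusted p = 0.202). T143 replicate 3, the library with the highest neutrophil sum, had the lowest Btg1 and Btg2 of T143 and the highest Zfp36.

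Ordered per kilobase, Zfp36 stood first in each group, at 4137 ± 369 in T143, 14532 ± 2598 in T138 and 3530.6 ± 868.3 in WT (SD; n = 3, 2 and 3). In WT that place rests on replicate 1, since Zfp36l1 was above Zfp36 in replicate 2 (3720.7 against 2876.4) and replicate 3 (3573 against 3199.7). It also rests on the Zfp36 length of 1765 bases: with the whole transcript of 2790 bases, Zfp36 was at 2617 in T143 and 9193 in T138, first in both, and at 2234 in WT, behind Zfp36l1 and Zfp36l2. In T143 Btg1, Zfp36l2 and Btg2 followed at 1976, 1972 and 1967 per kilobase and overlapped with each other. In T138 Zfp36l2 (3651) and Zfp36l1 (2877) came next and stood apart from their neighbours. In WT Zfp36, Zfp36l1 (3133) and Zfp36l2 (2810.2) overlapped pairwise in that order. Btg1 (2143) stood below Zfp36 and Zfp36l2 and overlapped with Zfp36l1. In WT replicate 1 Zfp36l1 was at 2104.8 and Btg1 at 2370.2. The lowest member was Zc3h12a in T143 (231), Tob1 in T138 (191) and Rc3h1 in WT (230.2), and each overlapped with the member above it.

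Of the relatives outside the 10, Tob2, a close paralog of Tob1, was well detected and called in no comparison, with log2 changes of 0.06, -0.15 and -0.21 for T143 against T138, T143 against WT and T138 against WT. Btg4 was at 0 throughout, Btg3 and Zfp36l3 were at most 24.55, and Zc3h12b and Zc3h12c, Regnase relatives at low levels, were called. Zc3h12b was at 17.9, 19.1 and 11.1 in the T143 libraries, listed at 0 in both T138 libraries, and at 37.2, 28.8 and 12.2 in WT, and passed as higher in T143 than in T138 (limma adjusted p = 0.0103) and lower in T138 than in WT (limma adjusted p = 0.00844). Zc3h12c was at 7.96, 57.3 and 80.5 in the T143 libraries, 142 and 76.2 in the T138 libraries, and 108, 374 and 169 in WT. It was lower in T143 than in WT (log2 change -2.45, limma adjusted p = 0.0461), a call lost without T143 replicate 1, T143 replicate 2, T138 replicate 1, T138 replicate 2, WT replicate 2 or WT replicate 3. Over the 4 lists of general decay machinery, 57 genes were tested. T143 against T138 called 7 higher and 4 lower (median log2 change 0.06, beside 0.15 over all tested genes), T143 against WT 0 and 9 (median -0.10, beside 0.05), and T138 against WT 1 and 3 (median -0.19, beside -0.07). Of all tested genes, 21.0, 23.8 and 11.0% were called in these comparisons, in either direction. For T143 against WT, 2 were higher at an unadjusted p under 0.05, and edgeR and DESeq2 called 1 each. Leaving out T138 replicate 2 took the calls to 6 for T143 against T138 and to 1 for T138 against WT, and leaving out T143 replicate 2 took those for T143 against WT to 6.
Among the deadenylases, Pan2, the catalytic subunit of the PAN2-PAN3 complex, averaged 1241 ± 217 in T143, 2574 ± 186 in T138 and 3011.5 ± 139 in WT (SD; n = 3, 2 and 3), a log2 change of -1.07 against T138 (limma adjusted p = 0.00207) and -1.29 against WT (limma adjusted p = 0.000369). Cnot1, the scaffold of CCR4-NOT, was higher in T143 than in T138 (0.69, limma adjusted p = 0.0116), a call lost without T138 replicate 1 (0.59, limma adjusted p = 0.0951). Xrn1, the exonuclease that degrades decapped mRNA, was higher in T143 than in T138 (0.80, limma adjusted p = 0.00758), a call lost without T138 replicate 2 (0.75, limma adjusted p = 0.0686). The calls of Pan3 and Cnot6l were lost when any of several single libraries was left out, and both stay in the counts only.
Skiv2l, the helicase of the cytoplasmic exosome, averaged 2486 ± 306 in T143, 4688 ± 607 in T138 and 4482 ± 110 in WT and was lower in T143 than in T138 and in WT (log2 change -0.92 and -0.86, limma adjusted p = 0.00259 and 0.00169). Upf3b, of nonsense-mediated decay, was at 555 ± 40.0 in T143, 1319.7 ± 55.9 in T138 and 1325 ± 288 in WT (log2 change -1.25 against T138 and -1.23 against WT, limma adjusted p = 0.00182 and 0.000879). Of 13 other mRNA stability proteins, 2 were higher and 2 lower for T143 against T138, 1 higher and 3 lower for T143 against WT, and 0 passed for T138 against WT with limma (1 higher and 1 lower at an unadjusted p under 0.05; 0 calls with edgeR and 1 with DESeq2). Leaving out T138 replicate 2 took T143 against T138 to 1 call, and leaving out T143 replicate 1 took T143 against WT to 2. Tial1, an AU-rich element binding protein, was lower in T143 than in T138 and in WT (log2 change -1.07 and -1.06, limma adjusted p = 0.000727 and 0.000355). Pcbp1, a poly(C)-binding protein, was higher in T143 than in T138 and in WT (log2 change 0.77 and 0.71, limma adjusted p = 0.0126 and 0.00978), and without T138 replicate 2 the difference from T138 lost its call (0.68, limma adjusted p = 0.111). The median log2 change of the 13 was -0.04 for T143 against T138 and 0.02 for T143 against WT, beside 0.15 and 0.05 over all tested genes. Calls in either direction took 21.0 and 23.8% of all tested genes in these comparisons and 11.0% for T138 against WT.

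Of 10 enzymes and adaptors that modify or cleave the members, 3 were lower and 1 higher for T143 against T138, 1 lower and 2 higher for T143 against WT, and 1 higher for T138 against WT. Leaving out T138 replicate 2 took T143 against T138 to 2 calls, and leaving out T138 replicate 1 took T143 against WT to 1. Malt1, the protease that cleaves Regnase-1 and Roquin, was at 3649.83, 3552 and 3085 in the T143 libraries, 7459 and 6516 in the T138 libraries, and 3081, 4048 and 3022.5 in WT. Both T138 libraries were above all others (-1.03 for T143 against T138, limma adjusted p = 0.00226; 1.06 for T138 against WT, limma adjusted p = 0.00304). Mapkapk3, a kinase that can phosphorylate tristetraprolin-type proteins, was lower in T143 than in T138 (-1.32, limma adjusted p = 0.00298). The higher calls in T143 were Mapkapk2, the closest relative of Mapkapk3, and Bcl10, the partner of Malt1. Bcl10 was higher than in T138 (0.64, limma adjusted p = 0.0309) and in WT (0.52, limma adjusted p = 0.0411), and Mapkapk2 was higher than in WT (0.73, limma adjusted p = 0.0338). Against T138 the higher call was lost without T143 replicate 1, T143 replicate 3 or either T138 library. Against WT, Bcl10 lost its call without any 1 library other than T143 replicate 2 (limma adjusted p up to 0.118), and Mapkapk2 without T143 replicate 2 or 3, either T138 library, or WT replicate 1 or 2 (limma adjusted p up to 0.107). The median log2 change of the 10 was 0.13 for T143 against T138, -0.05 for T143 against WT and 0.06 for T138 against WT, beside 0.15, 0.05 and -0.07 over all tested genes. In the same order, 21.0, 23.8 and 11.0% of all tested genes were called in either direction.

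The published target list (24 transcripts, 23 tested) holds mRNAs reported as targets of one or more members. T143 against T138 called 3 higher and 7 lower, T143 against WT 1 and 10, and T138 against WT 3 and 6, with medians of 0.04, -0.73 and -0.39 beside 0.15, 0.05 and -0.07 over all tested genes. In the same order, 10.8, 11.7 and 5.74% of all tested genes were called higher and 10.2, 12.1 and 5.3% lower. Il2ra, the IL-2 receptor alpha chain, was at 909, 1414 and 1307 in the T143 libraries, 8631 and 7099 in the T138 libraries, and 12706, 13734 and 12116 in WT, with log2 changes of -2.72 for T143 against T138 (limma adjusted p = 2.69e-05) and -3.43 for T143 against WT (limma adjusted p = 3.18e-06). Nfkbiz, an NF-kB regulator and Regnase-1 target, was at 1296, 1667 and 1733 in the T143 libraries, 5822 and 5889 in the T138 libraries, and 3772, 3413 and 2944 in WT (-1.91 for T143 against T138, limma adjusted p = 0.000134; -1.11 for T143 against WT, limma adjusted p = 0.000756). The T143 libraries were lowest for both genes. Nfkbid moved in the same way (-1.54 for T143 against T138, limma adjusted p = 0.000247). Nfkbiz and Nfkbid were among the higher calls for T138 against WT (0.80 and 0.63, limma adjusted p = 0.013 and 0.0309). Notch1 and Myc were among the higher calls for T143 against T138 (0.70 and 0.68, limma adjusted p = 0.00781 and 0.0185). Rel and Myc were lower in T138 than in WT (-1.03 and -1.54, limma adjusted p = 0.0101 and 0.000561), and Rel lost that call without T138 replicate 1 (-0.88, limma adjusted p = 0.0812). Leaving out T138 replicate 2 took the list to 6 calls for T143 against T138 and to 3 for T138 against WT, and leaving out T138 replicate 1, WT replicate 1 or WT replicate 3 took T138 against WT to 5. The list mixes targets of several families, and mRNA level alone does not show decay.

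**Figure D4:**
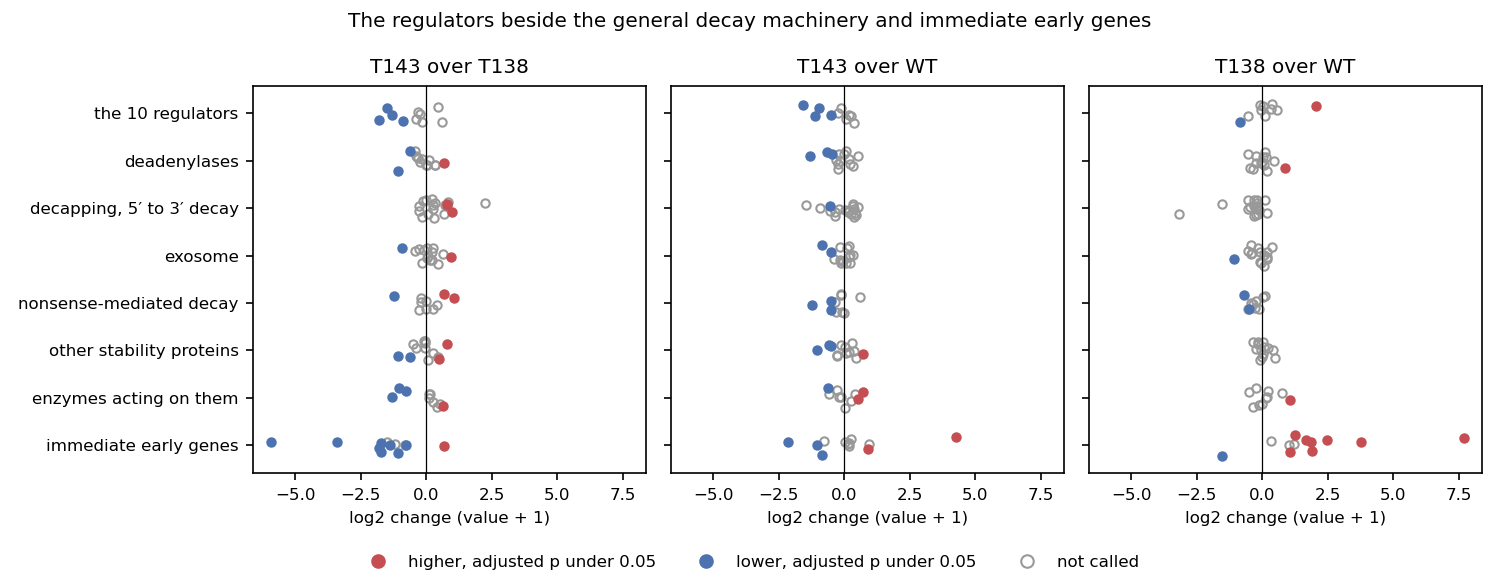
Each point is a gene placed by its log2 change, for the 10 regulators and 7 pathway lists down the page and a comparison in each panel, with red for called higher, blue for called lower and open grey for not called. Of the 12 immediate early genes, described next, 8 lie in blue in the T143 over T138 panel and 8 in red in the T138 over WT panel.

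Zfp36 and Btg2 belong to the genes that are switched on early after stimulation, and 12 other immediate early genes were set beside them. In T143 against T138, 8 of the 12 were lower and 1, Myc, was higher. In T138 against WT, 8 were higher and 1, Myc, was lower. In T143 against WT, 2 were higher (Ier2, Atf3) and 3 lower (Fosb, Nr4a1, Myc). Atf3 was at 35.8, 61.1 and 74.3 in the T143 libraries and at 0, 3.19 and 4.56 in WT, where 3 reads stand at 2.07 to 3.19. The higher calls of Atf3 against WT, in T143 and in T138, rest on these low WT values. The medians of the 12 were -1.44, 1.45 and 0.15, beside 0.15, -0.07 and 0.05 over all tested genes. In the same order, 21.0, 11.0 and 23.8% of all tested genes were called in either direction. Without either T138 library, T143 against T138 had 5 calls, all lower. Whether what moved these genes also moved Zfp36 was not tested.
Fosb, an AP-1 subunit, was at 33.8, 53.5 and 89.1 in the T143 libraries, 3214 and 3572 in the T138 libraries, and 247, 301 and 199.88 in WT, with T138 far above both other groups (-5.93 for T143 against T138, limma adjusted p = 1.83e-05; 3.78 for T138 against WT, limma adjusted p = 0.000335). Egr1, a zinc finger transcription factor, was at 1972, 2592 and 2283 in the T143 libraries, 7845 and 7217 in the T138 libraries, and 2023, 1877 and 2289.87 in WT (1.87 for T138 against WT, limma adjusted p = 0.000129). Junb, chosen like Jun and Fos after the values were seen, was at 7659.86, 6536 and 6871 in the T143 libraries, 24863 and 21304 in the T138 libraries, and 10297, 3553 and 6300.36 in WT. Both T138 libraries were above every T143 and WT library for Fosb, Egr1, Junb and Zfp36. WT replicate 1 stood above the other WT libraries in Jun, at 6944 against 773 and 1072, and in Fos, at 2337 against 348 and 480, and it is also the WT library with the highest Zfp36 and Btg2 and the lowest Zfp36l1.

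**Figure D5:**
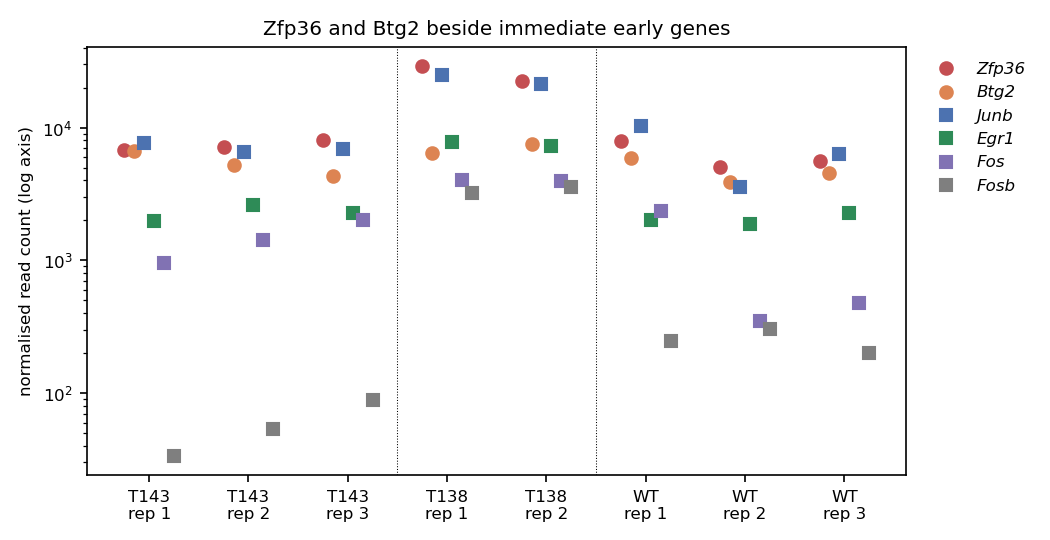
Normalised read counts on a log axis of Zfp36, Btg2, Junb, Egr1, Fos and Fosb in each library, with T143, T138 and WT from left to right. In both T138 libraries Zfp36, Junb, Egr1 and Fosb are above all other libraries, and in WT replicate 1 Fos (2337) is above the other WT libraries.

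As a description, the genes whose log2 values followed a member most closely over the 8 libraries were looked up among 7572 well detected genes. For Zfp36 they were Manba, Klf10 and Nck2, with Pearson r of 0.98, 0.972 and 0.971. Klf10, a transcription factor, was at 635, 627 and 636 in the T143 libraries, 1103 and 1184 in the T138 libraries, and 673, 457 and 546 in WT. For Zfp36l1 they were Tchp, Zfp467 and Cars2 (0.997, 0.991 and 0.991), and for Zc3h12d they were P2rx7, S100pbp and Pbx2 (0.984, 0.974 and 0.972). The 8 points fall into 3 groups that also differ in depth and in the marker sums given above.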

How the data were processed

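Messenger RNA of 8 sorted Treg libraries was analysed from 1 deposited table. The authors deposited a signal, gene reads divided by a factor per library, which gives every library the same total. Undoing that factor gave whole reads for 100% of table entries (tolerance 0.01 in deposited units). Tools listed in the submitters' processing notes are HOMER 4.8, STAR 2.5.2b, edgeR and CASAVA 1.8.2, with build mm10. The library kit was stranded per the labels' protocols, and no source used here states whether counting used strand.

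The tests used limma 3.58.1 (R 4.3.3, mean-variance trend, robust) on log2(value + 1), all 8 libraries and group means in 1 fit, with Benjamini-Hochberg adjustment over the 15547 genes that reached 1 in 2 or more libraries. Changes are on that scale, which understates low genes. On the recovered reads edgeR 4.0.16 called 2718, 3263 and 1278 genes for T143 against T138, T143 against WT and T138 against WT, and limma 3272, 3698 and 1716. The procedure was tested on simulated data, where it missed most changes of 2-fold, so that a gene that did not pass can still differ. For T143 against T138 and T138 against WT, the share of false calls there was above the adjusted p threshold. Alternatives were another scaling, edgeR and DESeq2 1.42.0, a replicate block, and leaving out libraries.

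Members and lists were chosen with earlier results of these data known. All members are named, and of each pathway list at most 3 called genes a comparison with the smallest p and a mean above 310.4, of which some are left out here. Fos, Jun, Junb, Ier2 and Atf3 fall outside that rule and were chosen after their values were seen. Levels per kilobase use exon lengths of GENCODE vM21 transcripts within the RefSeq gene bounds (Zfp36: 1765 bases). Replicate letters were read as numbers 1 to 3.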

Additional observations from a re-analysis of the deposited data

How the results depend on the processing

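Of the calls of single members, 8 held under all 20 alternatives: Zfp36, Zfp36l1, Zfp36l2 and Zc3h12a for T143 against T138, Zfp36 for T138 against WT, and Zfp36l1, Zc3h12a and Zc3h12d for T143 against WT. The number of members called for T138 against WT was 1 without the libraries highest in neutrophil markers (T143 replicate 3 and T138 replicate 1). Leaving out single libraries gave 4 to 5 members for T143 against T138, 3 to 5 for T143 against WT and 1 to 2 for T138 against WT. Zfp36l2 for T143 against WT also lost its call without the 2 libraries with a disagreeing source name (-0.50, limma adjusted p = 0.0905) and without those highest in neutrophil markers (-0.44, limma adjusted p = 0.0665), and Zc3h12d for T138 against WT without the same libraries (-0.69, limma adjusted p = 0.117).

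Signs turned only for uncalled members, and the cause was not tested. Median centring gave log2 changes of -0.021 for Btg1 (T138 against WT) and -0.08 for Tob1 (T143 against WT), and quantile normalization -0.031 and -0.012. Without the libraries highest in neutrophil markers Btg1 was at 0.002 (T143 against T138) and 0.064 (T143 against WT), and without the libraries with a disagreeing source name Rc3h2 was at -0.019 (T138 against WT). Over single libraries left out, log2 changes ran from -0.336 to 0.044 for Btg1 (T143 against T138), -0.316 to 0.064 for Btg1 (T143 against WT) and -0.049 to 0.095 for Btg1 (T138 against WT). For T138 against WT they ran from -0.342 to 0.069 for Zfp36l1, -0.142 to 0.076 for Rc3h1 and -0.099 to 0.32 for Rc3h2, and for T143 against WT from -0.107 to 0.164 for Tob1.

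Replicate numbers did not pair the samples (correlation of deviations -0.062 to 0.055 over 7 pairs). With a replicate block 5 members passed for T143 against T138, Rc3h1 being added (0.52, limma adjusted p = 0.0467), 4 for T143 against WT and 2 for T138 against WT, and Btg1 (T138 against WT) was at -0.089.

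Over all genes, leaving out single libraries gave 1345 to 3674 calls for T143 against T138, 2460 to 3575 for T143 against WT and 757 to 1837 for T138 against WT. Median centring turned the split for T143 against T138 to 1272 higher and 1713 lower, and that for T143 against WT to 1403 and 2157, and under quantile normalization the all-gene median log2 change was 0.01 for T143 against T138 and -0.08 for T143 against WT.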
